A study of Rattus norvegicus with 45 samples.

Results

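The 6 genes Stac, Adamtsl1, Zmat4, Sv2c, Csgalnact1 and Pcdh9 were followed here through their relation to Esrrg, and they are 6 of 40643 gene rows in each of the study's tables of counts. They were chosen from measured values of these same libraries, because their level rose with that of Esrrg both with and without region marker genes held in the model. Esrrg codes for an orphan nuclear receptor named estrogen-related receptor gamma. All 6 had enough counts to be tested in both sexes, among 18354 genes tested in females and 18426 in males.

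Tissue came from the medial preoptic area of rat pups of 22 female and 23 male libraries on postnatal day 10, and messenger RNA was read by 3′ Tag-seq, in which reads come from the 3′ ends of transcripts. Dams had been given 50 µg/kg bisphenol A (BPA, 6 female and 5 male libraries), 50 µg/kg of a mixture named mixed BP (6 and 6), 150 µg/kg of the same mixture (5 and 6), or corn oil (5 and 6), from gestation until birth. Mixed BP held BPA, bisphenol S and bisphenol F in equal parts. The libraries came from 24 litters, 6 per exposure, and 21 litters gave a pup of each sex. Dams were assigned as pairs that shared a cage, and the labels do not say which litters shared a cage. The p-values below treat litters as independent and do not take the cage into account. Tests over both sexes also treat the 2 pups of a litter as independent.

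Estrogen-related receptors bind DNA at an AAGGTCA core and switch on their targets with coactivators of the PGC-1 family, without needing estradiol. Human estrogen-related receptor gamma is known to bind BPA with high affinity. The members fall into several roles. Sv2c encodes a glycoprotein of synaptic vesicles that is abundant in the basal ganglia. Adamtsl1 encodes a secreted matrix protein related to the ADAMTS proteases but without their protease domain, and Csgalnact1 encodes the enzyme that starts chondroitin sulfate chains on matrix proteoglycans. Pcdh9 encodes a protocadherin, a cell adhesion molecule. Stac encodes an adaptor that binds L-type voltage-gated calcium channels, and Zmat4 encodes a zinc finger protein.

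Of the 6 members, 4 had at least 1 promoter window in RefSeq (build GRCr8, from 250 bases before to 50 bases after a transcription start), Adamtsl1 with 4 windows and Stac, Sv2c and Pcdh9 with 1 each. The full response element TNAAGGTCA, searched on both strands, was in 1.2% of all 33469 windows (401) and in none of the windows of the members or of Esrrg. Its core AAGGTCA, which the full element contains, was in 4.61% of all windows (1543) and, of the members, in Adamtsl1 only, in 2 windows that overlap all but 1 base. The first of these is shown because it holds the core, on the reverse strand as TGACCTT in capitals, starting 166 bases before the transcription start. The Stac window is shown beside it because Stac was the member whose most similar gene was Esrrg once the region was held constant, and it holds no match. A match is a run of letters, not a measured binding site.
Adamtsl1, chr5:105010266-105010565, plus strand: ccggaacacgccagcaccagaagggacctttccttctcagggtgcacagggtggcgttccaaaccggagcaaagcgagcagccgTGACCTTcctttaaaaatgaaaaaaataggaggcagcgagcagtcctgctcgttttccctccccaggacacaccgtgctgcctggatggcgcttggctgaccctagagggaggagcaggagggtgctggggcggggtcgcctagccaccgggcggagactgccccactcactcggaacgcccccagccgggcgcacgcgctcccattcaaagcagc
Stac, chr8:120531271-120531570, minus strand: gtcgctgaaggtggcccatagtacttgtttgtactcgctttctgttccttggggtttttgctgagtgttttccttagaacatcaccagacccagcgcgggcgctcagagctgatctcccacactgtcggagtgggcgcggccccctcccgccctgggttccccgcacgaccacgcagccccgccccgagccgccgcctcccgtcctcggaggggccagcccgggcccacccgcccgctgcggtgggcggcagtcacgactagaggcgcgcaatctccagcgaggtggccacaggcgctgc

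Female libraries held 4397460 to 7223180 counts each and male libraries 4747461 to 6740045, and no 2 libraries held identical values. Members were counted between 132 and 8454 times per library, and counting error weighs most on Adamtsl1 and Stac, whose lowest counts were 132 and 154. Reads carry no molecular identifiers and are not independent molecules. The tissue label was checked with marker lists. Of 18 preoptic and hypothalamic markers 10 passed the filter on low counts, among them Esr1, Pgr, Nts and Calcr, and Hmx3 and Otp were at 0 in every library. The summed level of this list was 82.3 to 148 CPM in female and 92.8 to 175 CPM in male libraries. CPM of single genes is the count relative to the scaled library total, while summed marker levels use the total without scaling. The 15 striatal markers were all detected and summed to 1304 to 3142 CPM in females and 1001 to 3377 CPM in males. The level of striatal RNA thus varied among pups, and a measure of it stands beside each relation to Esrrg. In tissue samples, fewer cells of a type and less RNA per cell cannot be told apart.

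That measure was the first principal component of 40 detected region markers of 52 listed, taken within a sex after subtracting each exposure group's mean and called the region component below. It held 50.8% of the markers' variance in females and 58.4% in males. High values meant more striatal RNA (14 of 15 striatal markers in females and 15 of 15 in males loaded positively) and less basal forebrain RNA (6 of 6 cholinergic and pallidal markers loaded negatively in both sexes). Most preoptic and hypothalamic markers, those of the labelled tissue, loaded negatively too (8 of 10 in females and 9 of 10 in males). Esrrg itself rose with it, with Pearson's r of 0.70 in 22 female and 0.83 in 23 male libraries. These are descriptions over libraries that share the same markers and scaling.

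The members varied by 1.38-fold to 3.27-fold between the lowest and the highest library of a sex. Sv2c ran from 49.4 to 133 CPM in females and from 47.3 to 145 CPM in males. Adamtsl1 ran from 35.4 to 93.2 CPM in females and from 28.2 to 92.3 CPM in males. These 2 genes had the widest spread of the 6, with within-group SDs of 0.39 to 0.46 on the log2 scale. Csgalnact1 lay between 83.4 and 127 CPM in females and between 73.2 and 131 CPM in males. Zmat4 lay between 50.4 and 90.2 CPM in females and between 50.3 and 94.5 CPM in males. Stac lay between 31.0 and 55.6 CPM in females and between 32.8 and 59.9 CPM in males. Pcdh9 lay between 858 and 1464 CPM in females and between 995 and 1375 CPM in males, with the smallest within-group SD of the 6 in both sexes (0.15 in females, 0.10 in males). Esrrg lay between 102 and 175 CPM in females and between 88.2 and 181 CPM in males.

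**Figure D1:**
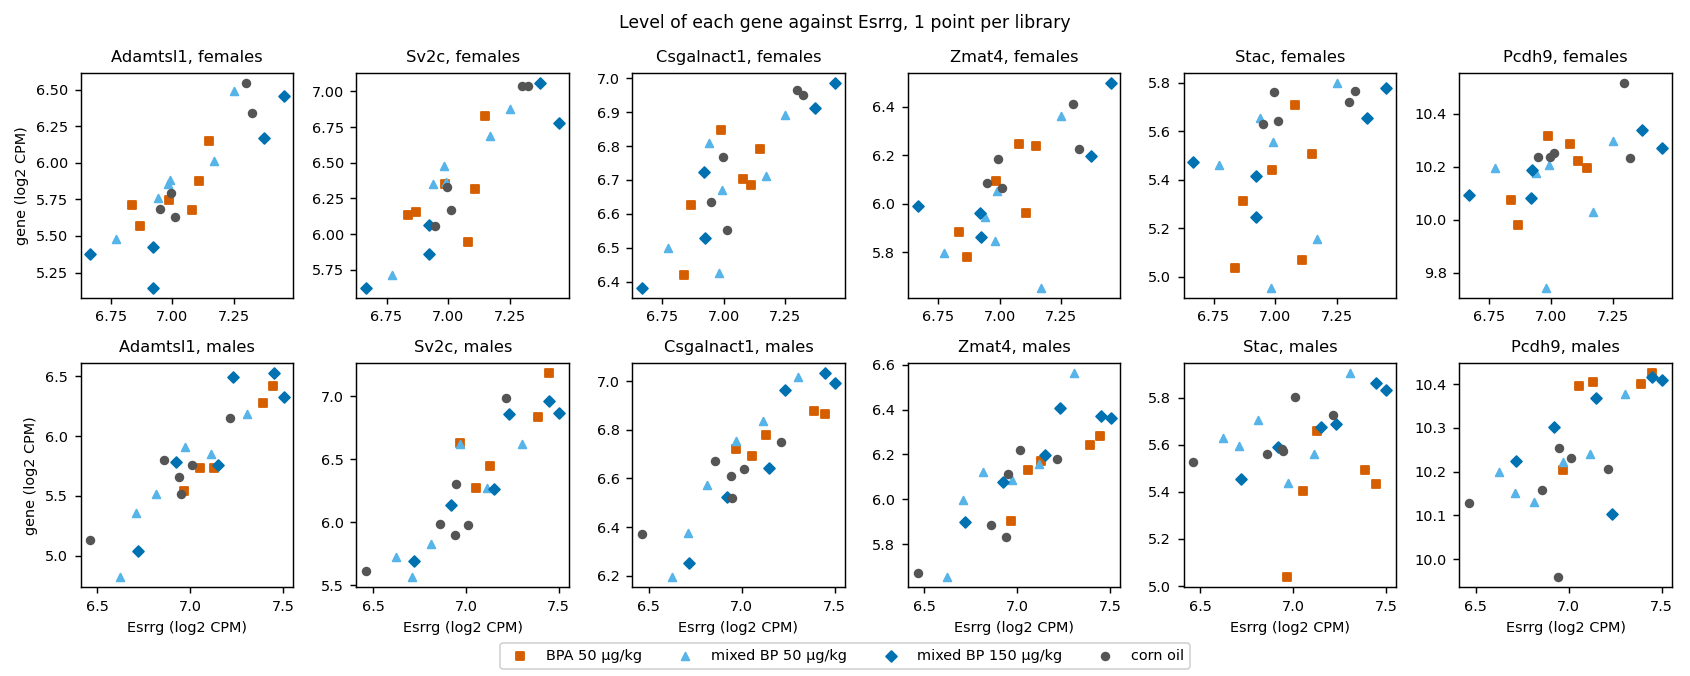
Level of each gene (vertical axis, log2 CPM) against Esrrg (horizontal axis, log2 CPM) in each of 22 female (top row) and 23 male libraries (bottom row), with colour and symbol giving the exposure. Adamtsl1 and Sv2c lie near a line in both sexes, while Stac and Pcdh9 scatter widely around theirs.

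The relation to Esrrg was a slope, the change of a member in log2 units per SD of log2 Esrrg (an SD of 0.20 in females and 0.28 in males), with exposure in an edgeR quasi-likelihood model. Since these slopes chose the members, they are given without a test. With the region component in the model the slopes of the 6 ranged from 0.15 to 0.34 in females, with a median of 0.24, against 0.06 to 0.39 and a median of 0.15 without it. In males they ranged from 0.12 to 0.29 with it, with a median of 0.19, against 0.06 to 0.44 and a median of 0.22 without it. Over all genes the median slope was 0.00 in each of the 4 models. For scale, 0.207% of genes in females and 0.0651% in males passed the threshold (adjusted p under 0.05) with the region component in the model, against 8.61% and 23.1% without it. Counted in the positive direction alone, these shares were 0.196% and 0.0651% with it and 4.4% and 11.1% without it. These shares are over all genes and do not place the members among the genes that passed. The members' ranks by slope over SE are given below as a description.

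Adding the region component raised the slope of some members and lowered that of others, which is a description and was not tested. The slope of Stac, the calcium channel adaptor, was 0.25 ± 0.04 (SE, n = 22) with it and 0.09 ± 0.04 without it in females. In males the Stac slope was 0.23 ± 0.05 (SE, n = 23) with it and 0.11 ± 0.03 without it. Pcdh9, the protocadherin, had a slope of 0.15 ± 0.03 with it and 0.06 ± 0.03 without it in females. In males Pcdh9 had 0.12 ± 0.04 with it and 0.06 ± 0.02 without it. For these 2 genes the slope was larger when the region was held constant, in both sexes. The size of the rise depended on the covariate. With the preoptic mean alone the Stac slope was 0.20 in females and 0.15 in males. With the basal forebrain mean alone it was 0.17 for Stac in males and 0.12 for Pcdh9 in females. Zmat4, the zinc finger gene, followed with 0.23 ± 0.04 with it and 0.14 ± 0.03 without it in females, and with 0.24 ± 0.05 and 0.21 ± 0.03 in males.

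The matrix and vesicle genes went the other way in males. Sv2c had a male slope of 0.15 ± 0.06 with the region component and 0.43 ± 0.06 without it. The first of these fell to 0.10 without replicate 5 of the BPA males, and it ran from 0.08 with 2 region components to 0.27 with the basal forebrain mean as the covariate. Its female slopes were 0.30 ± 0.05 and 0.39 ± 0.04. Sv2c was therefore the member whose slope on Esrrg shrank most when the region component was held constant. Its own slope on the region component was 0.34 ± 0.06 log2 units per SD in females and 0.40 ± 0.03 in males. Adamtsl1 had 0.29 ± 0.07 with it and 0.44 ± 0.04 without it in males, while its female slopes were 0.34 ± 0.05 and 0.34 ± 0.03. Csgalnact1 had 0.14 ± 0.04 with it and 0.23 ± 0.03 without it in males, and 0.17 ± 0.03 and 0.15 ± 0.02 in females.

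**Figure D2:**
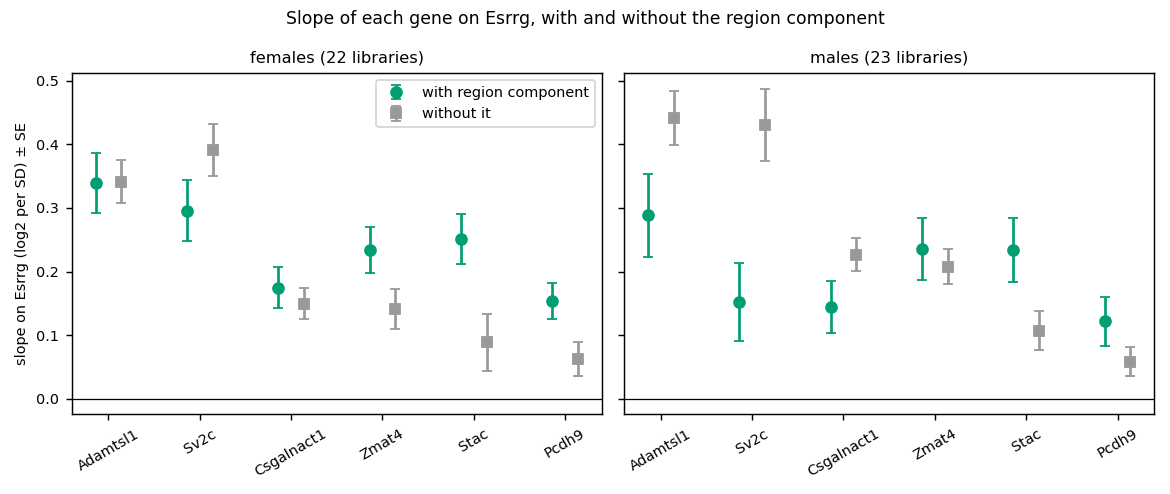
Slope of each gene on Esrrg (log2 units per SD of log2 Esrrg, error bars ± SE) with the region component in the model (circles) and without it (squares), in females and males. All 24 slopes are above 0. The circles lie above the squares for Stac and Pcdh9 in both sexes and below them for Sv2c.

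Ranked by the slope over its SE among 18353 other genes in females with the region component, Adamtsl1 was at rank 1, Zmat4 at 2, Stac at 3, Sv2c at 4, Csgalnact1 at 11 and Pcdh9 at 12. Among 18425 genes in males, Zmat4 was at rank 12, Stac at 18, Adamtsl1 at 24, Csgalnact1 at 72, Pcdh9 at 120 and Sv2c at 318. Without the region component the order differed: Stac stood at rank 2226 in females and 1294 in males and Pcdh9 at 1572 and 2233, while Adamtsl1 stood at 1 and 12. The members were chosen for their slopes on Esrrg in these libraries, so high ranks follow in part from the choice and are not a test.

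In the share of variance within exposure groups, Sv2c and Adamtsl1 stood apart from Stac and Pcdh9 in both sexes, while Zmat4 and Csgalnact1 differed between the sexes. In males the region component alone described 86.9% of the variance of Sv2c, 75.6% for Csgalnact1 and 75.5% for Adamtsl1. It described 5.75% for Stac and 4.96% for Pcdh9 in the same libraries, the 2 smallest shares of the 6. Over all genes the slope on the region component passed the threshold for 17% of genes in females (8.08% positive) and 29% in males (13.9% positive). In females the region component alone described 63.8% for Sv2c, 40.5% for Adamtsl1 and 22.3% for Csgalnact1, against 7.70% for Stac and 2.66% for Pcdh9. For Zmat4 it described 1.46% in females and 45.8% in males. Esrrg alone described 14.7% of the female variance of Stac, and Esrrg with the region component described 72.2%. For Pcdh9 the female shares were 20.5% with Esrrg alone and 64.8% with both. In males the shares were 37.6% with Esrrg alone and 61.2% with both for Stac, and 27.8% and 43.0% for Pcdh9. For Zmat4 they were 45.4% and 68.9% in females, and 75.2% and 75.9% in males. For Adamtsl1 they were 81.4% and 81.4% in females, and 83.5% and 87.3% in males. For Sv2c they were 81.3% and 87.0% in females, and 75.6% and 89.8% in males. For Csgalnact1 they were 68.8% and 71.0% in females, and 80.6% and 85.5% in males.

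**Figure D3:**
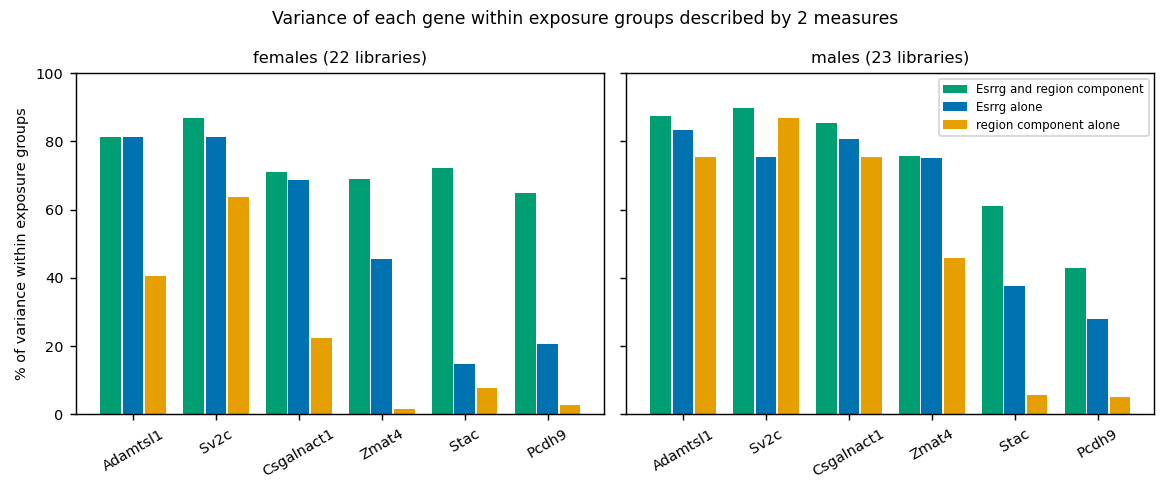
Share of each gene's variance within exposure groups (vertical axis, %) described by Esrrg with the region component, by Esrrg alone and by the region component alone, in females and males. For Stac and Pcdh9 the region component alone describes under 8%, while both measures together describe 72.2% and 64.8% in females and 61.2% and 43.0% in males.

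The slope was also fitted inside each of the 8 groups of exposure and sex. These are the same libraries whose slopes chose the members, and the slopes given above already held exposure constant. Positive slopes within groups therefore follow in part from the choice and are a description, not a repeat. Without the region component all 6 members had positive slopes in 8 of 8 groups, from 0.02 (Pcdh9, females of mixed BP at 50 µg/kg) to 0.52 (Sv2c, corn oil females). After the region component was taken out of both genes, Stac, Adamtsl1, Zmat4, Csgalnact1 and Pcdh9 kept positive slopes in 8 of 8 groups. Sv2c did so in 7 of 8, with -0.03 in males of mixed BP at 50 µg/kg. Whether the slope on Esrrg differed between exposures was tested jointly in edgeR. The members passing at an adjusted p under 0.05 numbered 0 in both sexes, beside 0% of all genes in females and 0.00543% in males. The lowest p among members was that of Csgalnact1 in males (unadjusted p = 0.00593, adjusted p = 1.00), whose slopes there were 0.10 for BPA, 0.32 for mixed BP at 50 µg/kg, 0.27 for mixed BP at 150 µg/kg and 0.13 for corn oil.

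The members also followed one another. Over the 15 pairs among them, Pearson's r of log2 CPM within exposure groups was positive for 15 pairs in each sex, with a median of 0.65 in females and 0.59 in males. After the region component was removed the medians were 0.78 and 0.54. After Esrrg was removed as well they were 0.40 and 0.15, and 15 pairs in females and 11 in males stayed positive. These values describe libraries that share scaling, tissue and Esrrg level.

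For each member the genes most like it were taken by the mean of the female and male r after exposure means and the region component were removed. Ranks are among 18136 other genes tested in both sexes, and only genes with an assigned symbol are named. Esrrg was the most similar gene to Stac (mean r 0.80), followed by Zmat4 (0.77) and Csgalnact1 (0.74). For Zmat4 the leading genes were Adamtsl1 (0.81), Esrrg (0.79) and Mctp1 (0.79). For Adamtsl1 they were Hpse, which encodes the heparan sulfate cutting enzyme heparanase (0.83), the potassium channel gene Kcnh5 (0.81) and Zmat4 (0.81), with Esrrg at rank 4 (0.76). Stac, Zmat4 and Adamtsl1 had Esrrg among their 4 nearest genes. The members were chosen for their relation to Esrrg in these libraries, so its near ranks follow in part from the choice.

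Csgalnact1 was nearest to Kcnh5 (0.85) and the homeobox gene Pknox2 (0.79), with Esrrg at rank 10 (0.71). Sv2c was nearest to Dab1, an adaptor of reelin signalling (0.81), Pde1a, a phosphodiesterase (0.79), and Rgs9, a striatal regulator of G protein signalling (0.78), with Esrrg at rank 51 (0.63). Among the genes nearest to Pcdh9 were the acid-sensing channel gene Asic2 (0.85) and the ryanodine receptor gene Ryr3 (0.82), with Esrrg at rank 79 (0.72). Other genes stood nearer to these 3 members than Esrrg did. With the region component left in, Esrrg stood at rank 73 for Stac, 13 for Zmat4, 4 for Adamtsl1, 6 for Csgalnact1, 62 for Sv2c and 395 for Pcdh9.

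The members were chosen for their relation to Esrrg and not for a difference between exposures, although the choice was made with results of these libraries known. None of the 6 members passed an adjusted p under 0.05 in edgeR in any of the 12 comparisons (3 exposures against corn oil and 3 pairs of exposures, in each sex), beside 0% of all genes in each of them. The number of genes at an unadjusted p under 0.05 ran from 417 to 2276 per comparison. Stac and Pcdh9 had the lowest p-values among members against corn oil and are given by library.

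Stac in BPA females ran from 32.8 through a median of 41.6 to 52.3 CPM, against 49.6, 50.0, 52.8, 54.3 and 54.4 CPM in corn oil females. Of the 6 BPA females 5 lay below every corn oil female, so the groups overlapped by 1 library. The log2 difference was -0.34 ± 0.13 (SE, n = 6 and 5, edgeR unadjusted p = 0.0151, adjusted p = 1.00). Stac in BPA males was at 32.8, 42.3, 43.2, 44.99 and 50.6 CPM, against a range from 46.1 through a median of 47.8 to 55.8 CPM in corn oil males. Of the 5 BPA males 4 lay below every corn oil male. The log2 difference was -0.22 ± 0.09 (SE, n = 5 and 6, edgeR unadjusted p = 0.0303, adjusted p = 0.416), and it was -0.13 without replicate 1 of the BPA males.

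The Stac difference between BPA and corn oil had the same sign in both sexes and passed the threshold in neither. Of the 24 litters of the study 21 gave a pup of each sex, so the 2 signs are not independent observations. The summed striatal markers had a median of 2590 CPM in BPA females, against 2378 CPM in corn oil females, and their part in the Stac difference was not tested beyond the fit with marker means. With Esrrg held constant the Stac difference was -0.30 ± 0.12 in females and -0.33 ± 0.08 in males (edgeR adjusted p = 0.987 and 0.841). With the mean levels of striatal and preoptic markers held constant it was -0.35 in females and -0.24 in males (adjusted p = 0.893 and 0.7003). Against BPA, the Stac difference in males was 0.27 ± 0.09 after 150 µg/kg mixed BP (edgeR unadjusted p = 0.00783, adjusted p = 0.967) and 0.23 ± 0.09 after 50 µg/kg mixed BP (unadjusted p = 0.0225, adjusted p = 0.367). These 2 comparisons use the same BPA males as the comparison with corn oil. Mixed BP males differed from corn oil males in Stac by 0.01 ± 0.09 at 50 µg/kg and by 0.05 ± 0.09 at 150 µg/kg. In females the Stac difference from corn oil was negative after mixed BP too, at -0.25 ± 0.13 for 50 µg/kg and -0.18 ± 0.14 for 150 µg/kg, neither passing. Of these females 4 of 6 and 3 of 5 lay below every corn oil female. Against BPA females they differed by 0.10 ± 0.13 and 0.17 ± 0.13.

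Pcdh9 in BPA males was at 1179, 1348, 1351, 1357 and 1375 CPM, against a range from 995 through a median of 1162 to 1222 CPM in corn oil males. Of the 5 BPA males 4 lay above every corn oil male. The log2 difference was 0.21 ± 0.07 (SE, n = 5 and 6, edgeR unadjusted p = 0.00343, adjusted p = 0.358). Pcdh9 in BPA females ran from 1011 through a median of 1183 to 1275 CPM, against 1203, 1208, 1208, 1219 and 1464 CPM in corn oil females. Of the 6 BPA females 4 lay below every corn oil female, and the log2 difference was -0.12 ± 0.08 (edgeR unadjusted p = 0.169). The difference of the BPA effect between the sexes, females minus males, was -0.32 ± 0.11 (edgeR over 45 libraries, unadjusted p = 0.00371, adjusted p = 0.589), so opposite signs were seen and the test of the difference did not pass the threshold. For mixed BP the Pcdh9 difference from corn oil was -0.18 ± 0.08 in females and 0.06 ± 0.06 in males at 50 µg/kg, and -0.10 ± 0.09 in females and 0.15 ± 0.06 in males at 150 µg/kg.

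The other 4 members differed from corn oil by at most about 2 standard errors. In BPA males the log2 differences were 0.50 ± 0.27 for Sv2c, 0.28 ± 0.26 for Adamtsl1, 0.19 ± 0.13 for Csgalnact1 and 0.15 ± 0.13 for Zmat4, with adjusted p-values from 0.490 to 0.703. Striatal markers moved with these: all 15 had a positive log2 difference in the same comparison, with a median of 0.56, and their summed level had a median of 2987 CPM (1761 to 3377) in BPA males, against 1874 CPM (1246 to 2832) in corn oil males. The 6 basal forebrain markers were below 0 in 6 of 6, with a median of -0.66. Esrrg itself differed by 0.28 ± 0.15 in BPA males (adjusted p = 0.471) and by -0.12 ± 0.12 in BPA females (adjusted p = 1.00). With striatal and preoptic marker means held constant the male differences were 0.10 for Sv2c, -0.06 for Adamtsl1, 0.01 for Csgalnact1 and 0.03 for Zmat4, against 0.19 for Pcdh9.

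The region component itself, being centred within exposure groups, cannot remove a difference in tissue between exposures. With it in the edgeR model the residual spread shrank. Sv2c (0.53, adjusted p = 0.000803) and Pcdh9 (0.21, adjusted p = 0.0249) then passed in BPA males against corn oil, among 1212 of 18426 genes tested. In the same model Sv2c passed in males of mixed BP at 50 µg/kg against BPA males (-0.58, adjusted p = 0.000286), among 1455 of 18426 genes. With the uncentred marker means, 0 members and 0 genes passed in either comparison.

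In BPA females the log2 differences from corn oil were -0.28 ± 0.27 for Sv2c, -0.25 ± 0.24 for Adamtsl1, -0.16 ± 0.12 for Zmat4 and -0.10 ± 0.11 for Csgalnact1. In mixed BP females at 50 µg/kg Zmat4 differed by -0.24 ± 0.12 and Stac by -0.25 ± 0.13. In mixed BP males at 150 µg/kg Zmat4 differed by 0.23 ± 0.12 and Adamtsl1 by 0.36 ± 0.25. All had adjusted p-values above 0.99. The 95% interval for Sv2c in BPA females was -0.84 to 0.29 (6 and 5 litters). Between mixed BP and BPA at equal total dose, the differences of Sv2c, Adamtsl1, Csgalnact1 and Zmat4 ranged from -0.08 to 0.15 in females and from -0.54 to -0.03 in males, none passing.

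**Figure D4:**
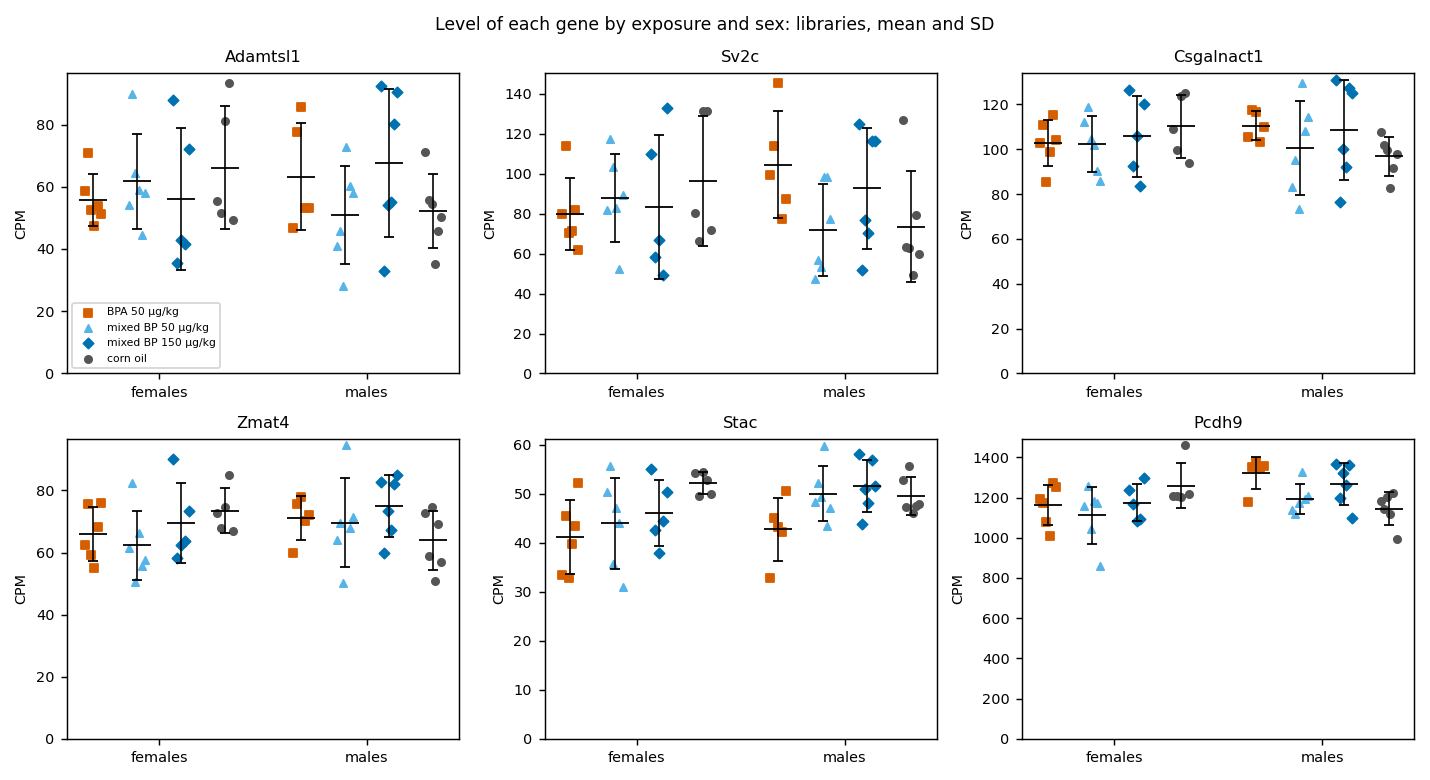
Level of each gene (CPM, axis from 0) in every library by exposure and sex, with black bars for the mean and SD of each group of 5 or 6 libraries. Most Stac values after BPA lie below the corn oil values of the same sex, and 4 of 5 Pcdh9 values of BPA males lie above all corn oil males. In females 4 of 6 Stac values after 50 µg/kg mixed BP and 3 of 5 after 150 µg/kg also lie below all corn oil females.

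Between the sexes the members did not differ detectably. Over 45 libraries 0 of 6 passed, beside 0.0999% of all genes, and 0 of 6 passed with the litter as a block. The largest difference, females over males, was that of Stac (-0.09 ± 0.06, 95% interval -0.20 to 0.03, edgeR adjusted p = 0.863).

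The dams' licking and grooming of the pups, a measure for which the labels give no unit, ranged from 91.9 to 547 over the litters. Taken over all exposures, its slope was within 1 SE of 0 for 6 of 6 members in both sexes, and 0 passed, beside 0% of genes. Nest attendance likewise gave 0 of 6 members past the threshold in each sex, beside 0% of genes. The slope was then allowed to differ by exposure. The members were chosen for a shared relation to Esrrg, and most dams gave pups of both sexes. Counts of signs over members and sexes are therefore not independent observations. Esrrg itself had slopes of -0.26 in females and -0.12 in males after 150 µg/kg mixed BP. Its slopes were 0.01 and -0.26 after BPA, 0.11 and 0.15 after 50 µg/kg mixed BP, and 0.05 and 0.09 after corn oil. In females of mixed BP at 150 µg/kg the slope per SD of licking/grooming was negative for 6 of 6 members, from -0.51 ± 0.13 for Adamtsl1 to -0.07 ± 0.06 for Pcdh9. In males of the same exposure it was negative for 5 of 6, from -0.40 ± 0.15 for Adamtsl1 to -0.06 ± 0.06 for Stac, with 0.06 ± 0.05 for Pcdh9. In BPA males it was negative for 6 of 6, from -0.48 ± 0.23 for Adamtsl1 to -0.09 ± 0.13 for Csgalnact1, while in BPA females it was positive for 4 of 6 and lay between -0.05 and 0.20. After 50 µg/kg mixed BP it was positive for 6 of 6 members in both sexes, from 0.03 ± 0.06 for Pcdh9 to 0.28 ± 0.19 for Sv2c in females and from 0.02 ± 0.05 for Pcdh9 to 0.27 ± 0.17 for Adamtsl1 in males.

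In corn oil litters the slopes lay between 0.01 and 0.19 in females and between -0.00 and 0.08 in males. The slope of the region component on licking/grooming was -0.17 in females and -0.39 in males after BPA, 0.58 and 0.27 after 50 µg/kg mixed BP, and -0.68 and -1.01 after 150 µg/kg mixed BP, against 0.25 and 0.20 in corn oil litters. Its part in the members' slopes was not tested apart from the fit with the region component below. The joint test of slope differences by exposure passed the edgeR threshold for 0 of 6 members in either sex, beside 0% of genes. The lowest unadjusted p-values were those of Zmat4 in males (0.00149, adjusted p = 0.926) and of Adamtsl1 in females (0.00418, adjusted p = 0.620). DESeq2 passed Adamtsl1 in females (adjusted p = 0.0353) among 13 of 18576 genes, and 0 members in males beside 0 of 34579 genes. With the region component in the edgeR model the unadjusted p of Adamtsl1 was 0.0230 in females and 0.00345 in males, and that of Zmat4 was 0.0465 and 0.00457. Stac had the lowest unadjusted p of the members in females in that fit (0.0125). None of the members passed there, with an adjusted p of 0.9997 in females and 0.99996 in males, beside 1 of 18354 and 0 of 18426 genes.

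**Figure D5:**
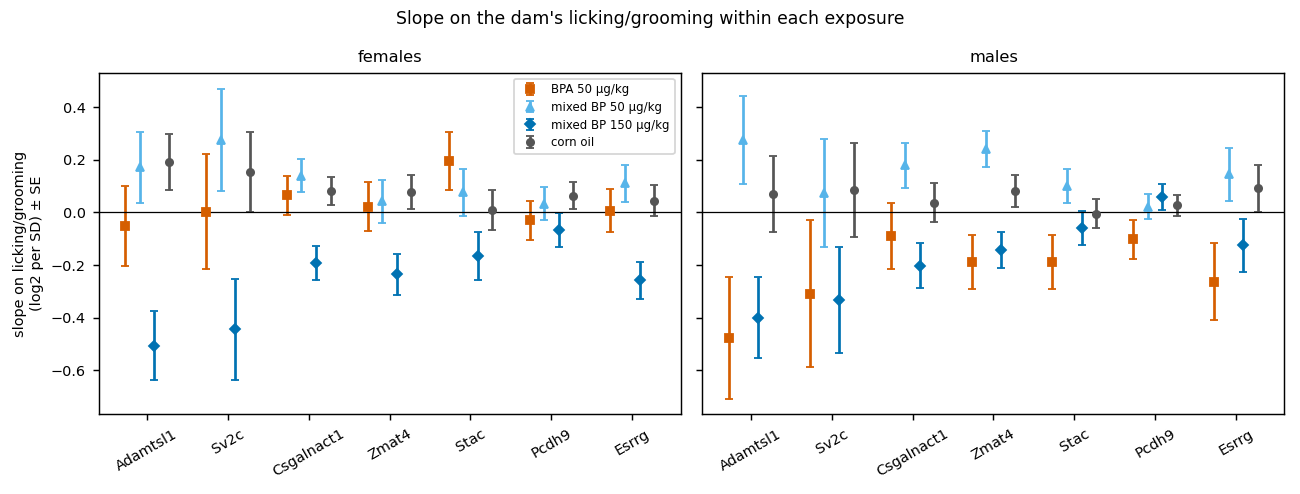
Slope of each member and of Esrrg on the dam's licking/grooming (log2 units per SD, error bars ± SE) within each exposure, in females and males. Adamtsl1 has slopes of -0.05 in females and -0.48 in males after BPA, 0.17 and 0.27 after 50 µg/kg mixed BP, -0.51 and -0.40 after 150 µg/kg mixed BP, and 0.19 and 0.07 after corn oil.

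Relatives of the members by role were set against Esrrg in the same fits as a description. With the region component in the model, 0 genes passed in either sex in each of the 7 lists. Without it, the counts have to be read beside the 8.61% of genes in females and 23.1% in males that passed. Of 16 tested STAC and voltage-gated calcium channel genes, 5 rose and 2 fell with Esrrg in females, and 9 rose and 3 fell in males. The channel subunit gene Cacnb4 had the lowest adjusted p in both (slope 0.18, adjusted p = 0.000125 in females, and 0.31, adjusted p = 1.98e-08 in males), and the L-type channel gene Cacna1c, whose product STAC proteins bind, rose by 0.11 and 0.16.

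Several relatives of Pcdh9, Sv2c and Zmat4 had negative slopes, opposite in sign to those 3 members. Of 11 non-clustered protocadherins besides Pcdh9, 3 fell and 0 rose in females, and 4 fell and 1 rose in males, with Pcdh19 at -0.23 and -0.29 and Pcdh17 at -0.14 and -0.22. Of 22 synaptic vesicle genes 3 rose and 4 fell in females, and 6 rose and 10 fell in males. Among them was Sv2a, the widely expressed relative of Sv2c, at -0.11 and -0.16, and Syt10 rose by 0.45 in males. Of 4 ZMAT genes 0 rose in either sex, and in males Zmat3 fell by 0.18.

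Among 24 tested chondroitin sulfate genes 4 rose and 1 fell in females, and 6 rose and 6 fell in males. The sulfotransferase genes Ust (0.24 and 0.26) and Chst15 (0.18 and 0.23) rose in both sexes. Of 18 ADAMTS-like, ADAMTS and fibrillin genes, 4 of 16 tested rose in females and 3 of 15 in males, with Adamts17 (0.18 and 0.15) and Adamts6 (0.10 and 0.20) in both. Among the 9 estrogen-related receptor and coactivator genes, Esrrb, a relative of Esrrg, rose in both sexes (0.28 and 0.25), and Ppargc1b, which encodes a PGC-1 coactivator, rose in females (0.22). The median slope of these lists lay between -0.07 and 0.08 in females and between -0.06 and 0.09 in males.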

How the data were processed

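The authors deposited raw whole-number counts per gene for 45 libraries of 3′ Tag-seq, 1 table per sex, both marked as having had outlying libraries removed. Per the submitters' processing notes, cutadapt 1.18, STAR 2.7.3a, SAMtools 1.10, bedtools 2.27.1 and build mRatBN7.2 were used. The sources used here give no settings, annotation or strandedness, so reads from genes that overlap, on either strand, may be mixed. Each column was assigned by its library name.

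Within a sex, the 4 exposures shared 1 fit in edgeR 4.0.16 (R 4.3.3) on these counts: filterByExpr with minimum count 10 and minimum total 15, TMM scaling, robust quasi-likelihood F-tests, Benjamini-Hochberg adjustment over all genes and a threshold of 0.05. Sex differences were fitted over both sexes with 19026 genes. Log2 CPM used a prior count of 2. Alternatives were DESeq2 1.42.0, limma-voom (limma 3.58.1), other scalings, filters and region covariates, the replicate number as a block, the litter as a block over both sexes, and each library left out. Same-numbered libraries of different exposures showed no common deviation (median r 0.01 in females, 0.00 in males), so the numbers were not taken as pairs. The tests were checked on simulated data. Promoter windows are from RefSeq, GRCr8. Figures were drawn with Python 3.11.15 and matplotlib 3.10.9.

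The members, the lists, the tests and the rule for named genes (the members, Esrrg, up to 3 most similar genes per member, and up to 3 list genes with the lowest p per sex) were chosen with earlier results of these data known. Of the genes most similar to a member, 1 is not reported here.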

Additional observations from a re-analysis of the deposited data

Results flagged for a closer look

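Outlying libraries were looked for in 56 combinations of a gene, an exposure and a sex, where chance gives about 1 in 20, and 2 were found, both in Pcdh9. Replicate 1 of the BPA males had 1179 CPM of Pcdh9, while the other 4 lay between 1348 and 1375 CPM. Without it the Pcdh9 difference between BPA and corn oil males was 0.25, against 0.21 with it. Replicate 4 of the corn oil females had 1464 CPM, while the other 4 lay between 1203 and 1219 CPM. Without it the Pcdh9 difference between BPA and corn oil females was -0.06, against -0.12 with it, and neither passed the threshold.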

How the results depend on the processing

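Over all alternatives and left-out libraries, 354 of 354 slope values of the 6 members on Esrrg without a region covariate and 426 of 426 with one were positive. They moved by more than their SE in 1 and 13 cases, among them that of Sv2c in males with a covariate, at 0.15, which was 0.08 with the first 2 region components, 0.26 with the preoptic mean alone and 0.27 with the basal forebrain mean alone. Over 13 alternatives with a covariate, among them other marker sets, DESeq2 and limma-voom, the median slope stayed between 0.21 and 0.26 in females and between 0.18 and 0.21 in males, and leaving out 1 library gave 0.22 to 0.26 and 0.17 to 0.21. The number of genes called with a covariate depended on the setting: 38 in females, with 10 (striatal mean alone) to 151 (basal forebrain mean alone), and 12 in males, with 1 (first 2 region components) to 365 (basal forebrain mean alone). Leaving out 1 library gave 12 to 51 in females, moving by over 1.5 times without BPA replicate 2 or 4, 50 µg/kg mixed BP replicate 2 or 6, 150 µg/kg mixed BP replicate 1, 3 or 5, or corn oil replicate 4. In males it gave 0 to 25, with 0 without BPA replicate 1, BPA replicate 5 or corn oil replicate 4, and it moved by over 1.5 times too without BPA replicate 2, 3 or 4 or 50 µg/kg mixed BP replicate 1 or 4. Without the covariate, 606 genes were called in females without 150 µg/kg mixed BP replicate 4 and 892 without 50 µg/kg mixed BP replicate 5, against 1580. Counts of members called changed in 3 cases. With the region component as covariate 2 members were called for BPA against corn oil in males, beside 1212 of 18426 genes. In the same model 1 was called for 50 µg/kg mixed BP against BPA in males, beside 1455 of 18426 genes. That covariate narrows the residual spread but leaves tissue differences between exposures in place. With DESeq2 1 was called for licking/grooming by exposure in females, beside 13 of 18576 genes, where the cause was not tested. Leaving out 1 library gave 0 members in every exposure, care, sex and slope-by-exposure test. Over all genes, the region component also gave 101 calls for 150 µg/kg mixed BP against BPA, 39 for the 2 mixed BP doses and 4 for 150 µg/kg mixed BP against corn oil in males, each with 0 members. DESeq2 called 9 genes and 0 members for BPA against corn oil in males, 4 and 0 for the licking/grooming slope in males, and 3 in females and 5 in males with 0 members for the Esrrg slope by exposure. With no filter on low counts, licking/grooming by exposure gave 12 genes and 0 members in females. Among 120 member differences and slopes that passed no test, the sign changed in 20 of 864 values under other settings and in 115 of 3240 with 1 library left out. With the litter as a block in the tests over both sexes, 0 members were called in the sex comparison and in the 3 sex differences of exposure effects, and 17 genes differed by sex. With the replicate number as a block the count of members called was 0 in every comparison, the median slopes were 0.26 in females and 0.20 in males with the covariate (0.15 and 0.22 without it), and 96 genes in females and 10 in males passed with it. Of the alternatives, 4 were chosen after seeing the data: no scaling factors, the basal forebrain mean as covariate, marker means as covariates of exposure, and the region component in the care interaction.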
